A study of Mus musculus with 21 samples.

Results

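Neuropeptide genes encode the precursor proteins of small signalling peptides, and 10 of them were chosen by name and followed in the midbrain RNA-seq of MPTP treated mice given irisin. These were Cck, Tac1, Penk, Pdyn, Sst, Npy, Nts, Vip, Cartpt and Gal. All 10 were listed in both deposited gene tables, which hold 33829 genes for the pre-treatment and 55385 genes for the delayed treatment of the mice with irisin, and all 10 had enough counts to be tested among 22641 and 21922 genes. The mice were male C57BL/6 animals of 6 weeks by the labels, in 7 groups of 3 mice, and every treatment was an intraperitoneal injection. MPTP is a neurotoxin that damages dopaminergic neurons of the substantia nigra, and irisin is the circulating fragment of the membrane protein FNDC5. In the 9 mice of the pre-treatment experiment, the control group received ddH2O for 10 days, the MPTP group received ddH2O for 5 days and then MPTP at 30 mg/kg per day for 5 days, and the irisin and MPTP group received irisin at 200 μg/kg per day for 5 days and then the same MPTP course. The 12 mice of the delayed treatment experiment comprised a control group with ddH2O for 10 days, a group with ddH2O for 5 days followed by irisin for 5 days, an MPTP group with ddH2O for 5 days after the toxin, and a group with irisin for 5 days after the toxin. Tissue is given as midbrain in the labels, and the methods of the study describe nigral tissue taken by hand, so each library is a bulk sample in which fewer cells of a type and less RNA per cell cannot be told apart.

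A neuropeptide precursor enters the secretory pathway, is cut by prohormone convertases, trimmed by carboxypeptidase E and in many cases amidated, and the peptides are stored with granins in dense core vesicles. After release they act on G protein-coupled receptors and are broken down by peptidases at the cell surface. In the midbrain, cholecystokinin (Cck) and neurotensin (Nts) are known from dopaminergic neurons, substance P (Tac1) and the opioid peptides (Penk, Pdyn) from striatal fibres and local neurons, somatostatin (Sst) and neuropeptide Y (Npy) from inhibitory neurons, and CART peptide (Cartpt) from the peptidergic Edinger-Westphal nucleus near the midline.

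The promoters of 9 of the 10 genes could be read from the RefSeq table of the build GRCm38.p6, which holds 250 bases before and 50 bases after each gene start. They were searched on both strands for TGACGTC, a part of the cAMP response element, an element through which cAMP signalling is known to act on peptide genes. Other forms of the element were not searched. The motif was found in 3 of these 9 genes, Sst, Cartpt and Vip, and in 3.21% of all 32851 promoters. The matched stretches are printed 5′ to 3′ on the strand of the gene, with the matched bases in capitals, because they are what sets these 3 promoters apart in the search.
Sst: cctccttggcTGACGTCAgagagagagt
Cartpt: cggcgggcatTGACGTCAaacggcagcg
Vip: atcactactgTGACGTCtttcggggag
The stretch of Sst is chr16:23890875-23890902 on the minus strand and its match begins 48 bases before the RefSeq start. That of Cartpt is chr13:99900778-99900805 on the minus strand, with the match 112 bases before the RefSeq start. That of Vip is chr10:5639129-5639155 on the plus strand, 79 bases before the start. In Sst and Cartpt the match reads the same on both strands, and the stretch lies inside the gene model of the deposited tables, which begins further upstream than the RefSeq start. A match is a description of these letters and not evidence of binding.

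The total count per mouse was 66653781 to 75637604 with pre-treatment and 48843585 to 77203445 with delayed treatment. Members had between 65 and 11539 counts in each mouse. Each of 8 markers of dopaminergic neurons was detected in every group. The dopamine transporter Slc6a3 had 62.9 to 67.4 CPM (read counts relative to the library size, scaled by the TMM method) in control mice and 15.3 to 53.5 CPM in MPTP treated mice of the delayed experiment. With pre-treatment it had 58.9 to 106 CPM in control mice, 51.3 to 65.5 CPM with MPTP and 25.7 to 37.2 CPM with irisin and MPTP. The 8 markers did not move alike in MPTP against control. With pre-treatment 5 of their log2 fold changes were above 0 and 3 below, with a median of 0.16, and with delayed treatment all 8 were below 0, with a median of -0.49. The libraries also differed in genes of neighbouring tissue. Replicate 2 of the MPTP group in the pre-treatment experiment had 1539 CPM of the choroid plexus gene Ttr, where the remaining 8 mice had 2.797 to 17.2 CPM. With delayed treatment Ttr was 1265 to 1550 CPM in 4 mice, of which 2 were control mice, 1 had MPTP and 1 had MPTP then irisin, and 24.2 to 533.8 CPM in the other 8.

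Levels between genes were compared on the deposited FPKM scale, which accounts for gene length. Sst and Penk stood first and second in each of the 7 groups, and their ranges over mice did not overlap in any group. Sst had 75.2 ± 14.6 FPKM (SD, n = 3) in control mice of the pre-treatment experiment and 139.6 ± 30.0 FPKM in those of the delayed experiment, and Penk had 40.5 ± 3.61 and 97.8 ± 6.90 FPKM. Cartpt took place 3 in 5 groups and place 4 in both MPTP treated groups of the delayed experiment, where its range overlapped that of Npy. The middle of the order was held by Cck, Npy, Tac1 and Nts. With pre-treatment these 4 genes had group means of 5.89 to 14.8 FPKM and many neighbours overlapped, for example Cck at 14.8 ± 5.21 and Npy at 9.65 ± 4.83 FPKM in control mice. Pdyn, Gal and Vip were lowest in all 3 groups of the pre-treatment experiment, with means from 1.49 to 2.42 FPKM that overlapped each other. Vip was last in every group of both experiments. Gal took place 6 in control mice of the delayed experiment at 10.2 ± 2.29 FPKM but place 8 in those of the pre-treatment experiment at 1.83 ± 0.974 FPKM. The tables were made separately, so this difference between experiments was not tested.

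**Figure D1:**
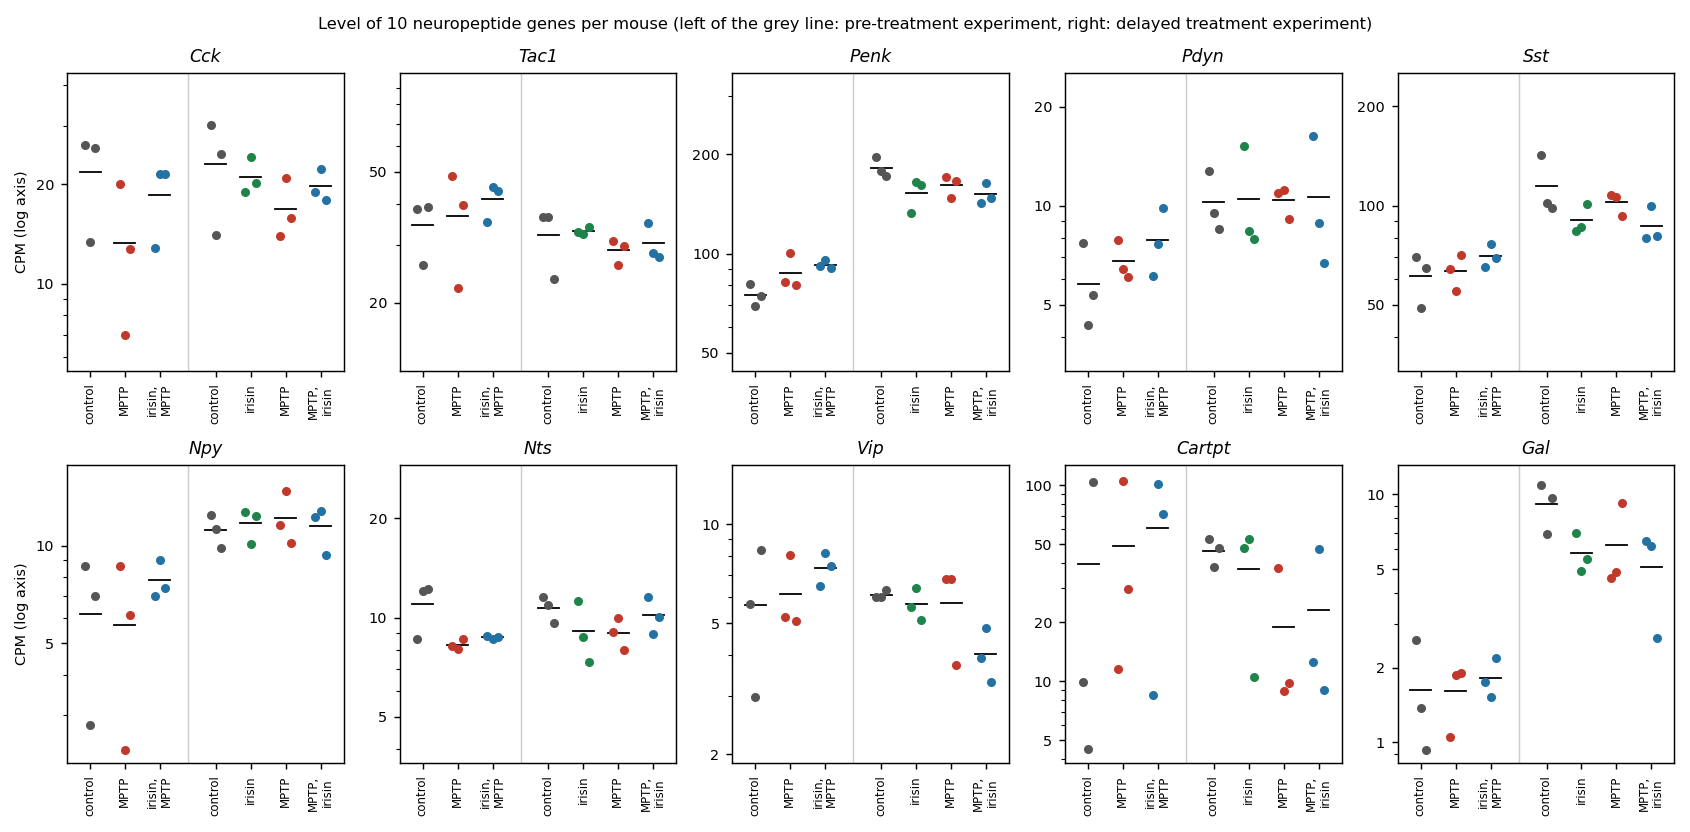
CPM on a log axis for each of the 10 neuropeptide genes, with 1 point per mouse and a bar at the mean of 3 mice in each of the 7 groups. Penk and Sst have the highest group means of CPM. Cartpt ranges from 4.50 to 105.5 CPM between mice of the pre-treatment experiment, where its highest mice lie above every Penk mouse. For most genes the points of the groups of an experiment overlap.

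The genes differed in how much mice of the same group varied. On the log2(CPM + 0.5) scale, the SD within groups was 0.12 for Penk and 0.20 for Sst with pre-treatment, against a median of 0.20 over all 22641 tested genes. Cartpt had an SD of 1.94 there, and only 29 tested genes had a larger one. In the delayed experiment its SD was 1.06, with 240 of 21922 genes above it. Npy and Cck were spread more widely with pre-treatment, with SDs of 0.68 and 0.58, than with delayed treatment, with 0.21 and 0.34. Pdyn and Gal had SDs of 0.43 and 0.46 in the delayed experiment, above 90.1% and 91.7% of tested genes. Penk varied less than most genes in both, with 24.9% and 27.2% of tested genes below it.

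**Figure D2:**
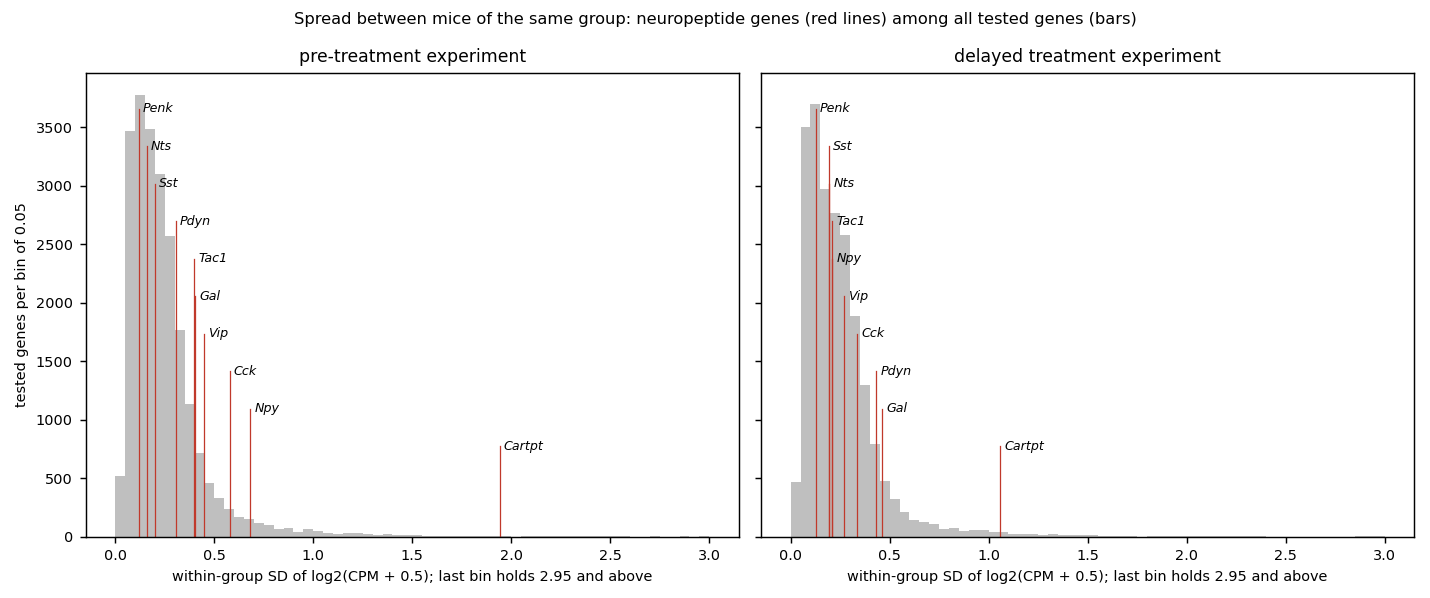
Within-group SD of log2(CPM + 0.5) for all tested genes (grey bars, genes per bin) and for the 10 neuropeptide genes (red lines) in both experiments. Penk lies to the left of the median of 0.20 and 0.21, while Cartpt lies far to the right at 1.94 and 1.06.

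None of the 10 genes passed an adjusted p of 0.05 in any of the 8 comparisons by the quasi-likelihood test of edgeR, adjusted by Benjamini-Hochberg over all tested genes, nor by DESeq2. The smallest adjusted p was 0.447, for Penk between mice given MPTP then irisin and control mice. Among all tested genes the share that passed was small as well. It was 0.0221% for MPTP against control, 0.0707% for irisin pre-treatment with MPTP against MPTP and 0.0707% for irisin pre-treatment with MPTP against control. In the delayed experiment it was 0.132% for MPTP against control, 0.109% for irisin alone against control, 0.00456% for MPTP with delayed irisin against MPTP, 0.109% for MPTP with delayed irisin against control and 0.0411% for the interaction of irisin with MPTP. Comparisons of an experiment share mice, so they are not independent. An exact two-sided permutation test of 3 mice with 3 others has 0.1 as its smallest p, so it was not used for single genes. Unadjusted p-values from edgeR are given as a description.

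MPTP against control asks how the toxin altered these genes. With pre-treatment, 2 of 10 genes had an unadjusted p under 0.05, Penk higher and Nts lower, where 6.03% of all tested genes did, and 1 gene (Nts) did not overlap between the groups, where 11.6% of all genes did not. The median log2 fold change of the 10 genes was 0.07, against -0.00 over all genes, with 6 values above 0. Leaving out a mouse left 2 to 7 values above 0. Without replicate 2 of the control group 2 were above 0 with a median of -0.17, and without replicate 2 of the MPTP group, which has the high Ttr level, 5 were with a median of -0.01, so the direction turned on single mice. With delayed treatment, 0 of 10 had an unadjusted p under 0.05 against a background of 8.33%, and 2 genes, Penk and Cartpt, did not overlap, against 16.2%. There 8 of 10 values were below 0 and the median was -0.17, and leaving out a mouse left 0 to 3 values above 0. Cartpt had the value farthest from 0 there, with a log2 fold change of -1.30 and the widest interval of the 10 genes.

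Irisin with MPTP against MPTP alone asks what irisin changed in toxin treated mice. With pre-treatment, 0 of 10 genes had an unadjusted p under 0.05 (6.22% of all genes did) and only Nts did not overlap (14.2% of all genes did not). All 10 log2 fold changes were above 0, from 0.07 for Nts to 0.49 for Cck, with a median of 0.20 against 0.00 over all genes. Leaving out a mouse left 8 to 10 of them above 0, and without replicate 2 of the MPTP group Cck came to 0.18, Npy to 0.08 and Tac1 to -0.09. With delayed treatment, only Vip had an unadjusted p under 0.05, against 3.90% of all genes, and 0 of 10 genes were without overlap, against 10.7%. The 10 values were evenly split with 5 above 0 and a median of -0.03. Leaving out a mouse left 3 to 7 values above 0, with a median of -0.16 without replicate 2 and 0.09 without replicate 3 of the MPTP then irisin group.

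Irisin with MPTP against control gave 2 genes with an unadjusted p under 0.05 with pre-treatment, Penk higher and Nts lower, against 7.12% of all genes, and 1 gene without overlap (Penk), against 13.6%. With delayed treatment 4 of 10 genes had an unadjusted p under 0.05, against 9.31% of all genes. These were Penk, Sst, Vip and Gal, and all 4 were lower than in control mice, where 4.59% of all genes had such a p and were lower. Penk, Vip and Gal did not overlap with control mice, all 3 of them lower, against 14.6% of all genes in either direction and 7.17% in the lower one. In this comparison 8 of the 10 values were below 0 with a median of -0.25, and leaving out a mouse left 0 to 4 values above 0. Without replicate 1 of the control group 4 were above 0 and 6 below, with a median of -0.11. Irisin alone against control gave 2 genes with an unadjusted p under 0.05, Penk and Sst, both lower, against 8.97% of all genes, and 1 without overlap (Penk), against 15.1%. The interaction, which asks whether irisin acted differently with and without MPTP, gave 0 of 10 genes with an unadjusted p under 0.05, against 5.57%, and its estimates ranged from -0.42 for Vip to 0.61 for Cartpt.

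**Figure D3:**
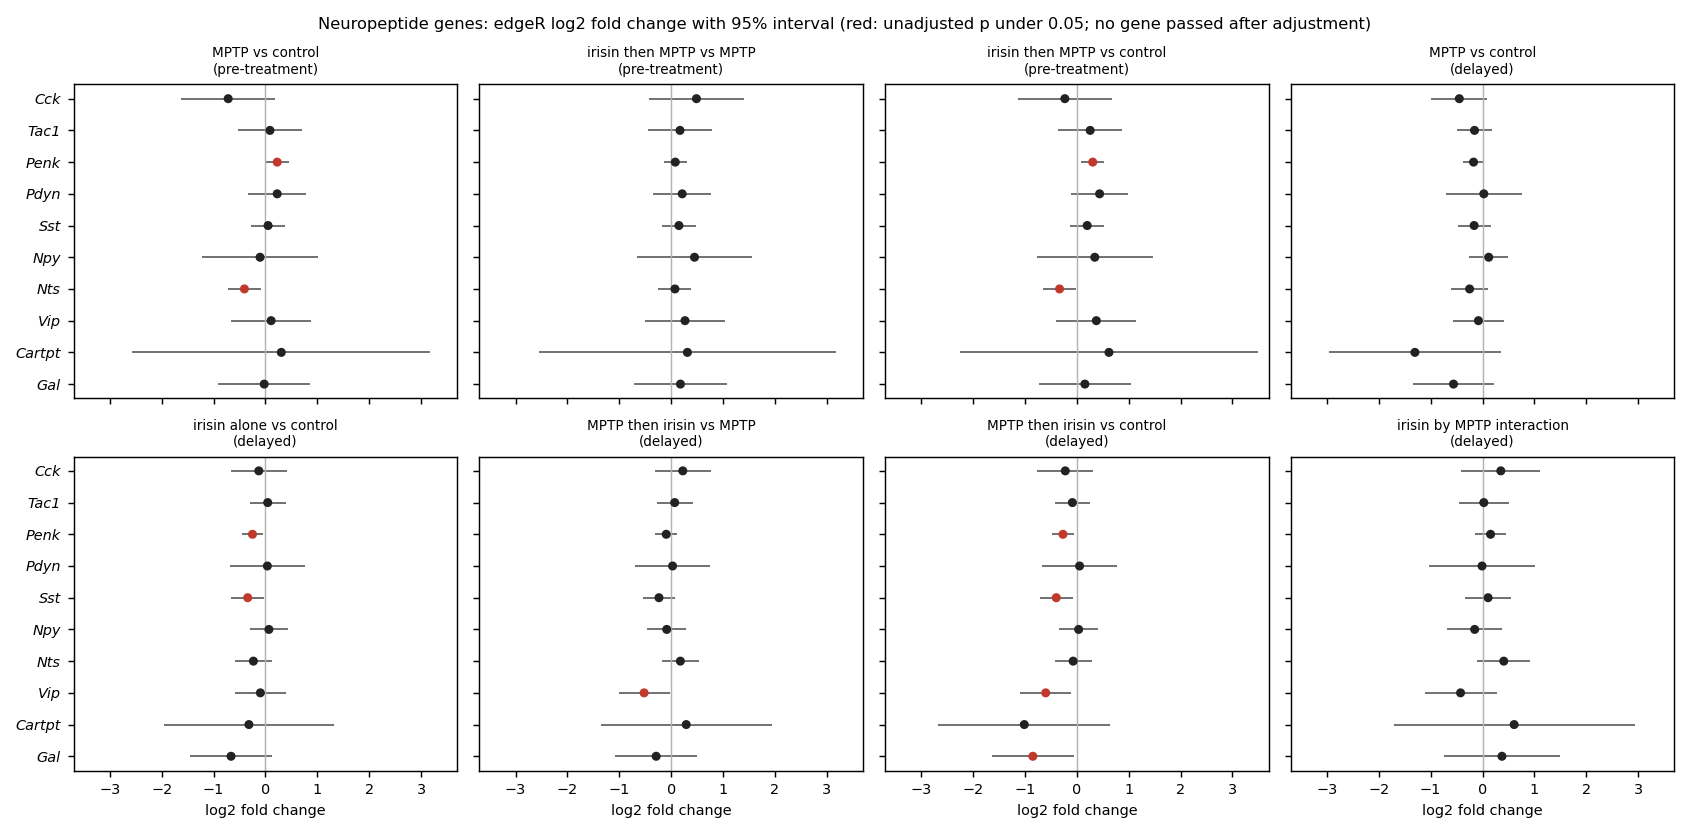
Log2 fold change from edgeR for the 10 neuropeptide genes in 8 comparisons, with the 95% interval as a line and genes with an unadjusted p under 0.05 in red. Penk has short intervals, Cartpt has the widest, from -2.57 to 3.18 for MPTP against control with pre-treatment, and the red genes of the comparison of MPTP then irisin with control all lie below 0.

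Penk (chr4:4133531-4138819, minus strand, GRCm38) encodes proenkephalin, the precursor of the enkephalins, which act on delta and mu opioid receptors. With pre-treatment it had 80.6, 69.5 and 74.2 CPM in the 3 control mice, 81.9, 100.2 and 80.3 CPM in the MPTP mice and 91.7, 95.4 and 90.3 CPM in mice given irisin and MPTP. All mice given irisin and MPTP lay above all control mice, while the MPTP group overlapped both. The log2 fold change was 0.23 ± 0.10 (SE) for MPTP against control (unadjusted p = 0.0443 and adjusted p = 0.823, edgeR) and 0.31 ± 0.10 for irisin and MPTP against control (unadjusted p = 0.0117, adjusted p = 0.537). Without replicate 2 of the MPTP group, which has the high Ttr level, the first value was 0.12.
Penk had the opposite sign with delayed treatment. It had 195.9, 178.2 and 171.4 CPM in control mice, 132.5, 164.4 and 161.8 CPM with irisin alone, 170.8, 147.2 and 165.9 CPM with MPTP and 142.6, 163.5 and 147.0 CPM with MPTP then irisin. Every mouse of each of these 3 treated groups lay below every control mouse. Replicate 1 of the MPTP group, at 170.8 CPM, was just under replicate 3 of the control group, at 171.4 CPM. The log2 fold change against control was -0.17 ± 0.09 for MPTP, -0.25 ± 0.09 for irisin alone (unadjusted p = 0.0234, edgeR, and -0.16 without replicate 1 of the irisin group) and -0.27 ± 0.10 for MPTP then irisin (unadjusted p = 0.0168, edgeR), and these 3 comparisons share the same control mice. The values of irisin with MPTP against control thus had opposite signs in the pre-treatment and the delayed experiment, without overlap in either, but the difference between the experiments was not tested. An antisense gene, A830012C17Rik, overlaps an exon of Penk, and it had at most 31 counts in a mouse, against 4714 or more for Penk. Whether counting used strand is not given in the sources used here, and without strand reads of this pair cannot be told apart.

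Pdyn (chr2:129686565-129699833, minus strand) encodes prodynorphin, the precursor of dynorphins, which act on the kappa opioid receptor. Its control mice had 7.71, 4.35 and 5.36 CPM with pre-treatment, where MPTP mice had 7.87, 6.43 and 6.07 CPM and mice given irisin and MPTP had 6.13, 7.67 and 9.82 CPM. The groups overlapped, and the log2 fold change of the last group against control was 0.44 with a 95% interval from -0.12 to 0.995.
With delayed treatment the 3 treated groups differed from control by 0.03 to 0.05 on the log2 scale, with 95% intervals that together reached from -0.70 to 0.78. Pdyn was highest in replicate 1 of the irisin group, with 15.2 CPM, and in replicate 1 of the MPTP then irisin group, with 16.3 CPM, against 6.69 to 12.7 CPM in the other 10 mice. The same 2 mice had the highest Pmch, the gene for the hypothalamic peptide melanin-concentrating hormone, with 70.8 and 89.8 CPM against 0 to 29.4 CPM, and the highest Hcrt, the orexin gene, with 12.4 and 14.6 CPM against 0 to 9.79 CPM. The 6 markers of hypothalamic peptide neurons (Hcrt, Pmch, Pomc, Agrp, Oxt and Avp) summed to 95.5 and 114.7 CPM in these mice, to 2.76 to 16.8 CPM in control mice, where 1 of the 6 was at 0, and to 2.29 to 48.8 CPM with MPTP. Their part in the Pdyn values was not tested. Without each of them, the Pdyn value of its group against control was -0.33 and -0.40.

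Sst (chr16:23889573-23890958, minus strand), the gene for somatostatin, with the promoter stretch printed earlier, encodes an inhibitory peptide that acts through the SSTR receptors. With pre-treatment it had 69.8, 49.0 and 64.8 CPM in control mice, 64.1, 55.1 and 70.8 CPM with MPTP and 64.9, 76.7 and 69.2 CPM with irisin and MPTP, and the groups overlapped. Delayed treatment gave 142.7, 102.2 and 98.6 CPM in control mice, 84.1, 86.0 and 100.9 CPM with irisin alone, 107.9, 106.1 and 93.1 CPM with MPTP and 79.9, 99.9 and 81.1 CPM with MPTP then irisin. Control mice were highest on average, but 1 mouse of each irisin group lay above the lowest control mouse. The log2 fold change against control was -0.34 ± 0.14 for irisin alone (unadjusted p = 0.0367, edgeR) and -0.40 ± 0.14 for MPTP then irisin (unadjusted p = 0.0189, edgeR). Replicate 1 of the control group decided their size, since without it they were -0.15 and -0.21.

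Npy (chr6:49822710-49829507, plus strand) encodes neuropeptide Y, an abundant peptide of inhibitory neurons. With pre-treatment, it had 8.65, 2.803 and 6.97 CPM in control mice, 8.66, 2.35 and 6.13 CPM with MPTP and 7.01, 9.03 and 7.39 CPM with irisin and MPTP. The groups overlapped, with 1 low mouse each in the control and MPTP groups. Npy varied less with delayed treatment, from 9.34 to 14.7 CPM over 12 mice, and its log2 fold change against control was 0.12 with MPTP (95% interval -0.25 to 0.49), 0.07 with irisin alone (-0.31 to 0.44) and 0.03 with MPTP then irisin (-0.34 to 0.41).

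Tac1 (chr6:7554879-7562977, plus strand) encodes the precursor of substance P and neurokinin A, which act on tachykinin receptors. It ranged from 22.1 to 48.5 CPM with pre-treatment and from 23.6 to 36.5 CPM with delayed treatment. Its groups overlapped in every comparison, and its log2 fold changes lay between -0.15 and 0.26. Irisin alone against control in the delayed experiment had 32.9, 32.5 and 34.0 CPM against 36.5, 36.3 and 23.6 CPM and an interval of -0.30 to 0.39. Its width of 0.69 was the same in the other delayed comparisons of 2 groups, which share a fit.

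Cck (chr9:121489824-121495639, minus strand), the gene for cholecystokinin, had 26.2, 13.4 and 25.9 CPM in control mice of the pre-treatment experiment, 20.1, 6.99 and 12.7 CPM with MPTP and 12.8, 21.5 and 21.5 CPM with irisin and MPTP. The MPTP group was lowest on average but overlapped both others. MPTP against control gave a log2 fold change of -0.72 ± 0.40 with an interval of -1.63 to 0.19, and it was -0.41 without replicate 2 and -1.15 without replicate 1 of the MPTP group. With delayed treatment MPTP mice had 14.0, 20.9 and 15.8 CPM and control mice 30.3, 14.0 and 24.8 CPM, and MPTP against control came to -0.45 ± 0.25 on the log2 scale. This value was -0.20 without replicate 1 and -0.70 without replicate 2 of the control group. The lowest control mouse lay within the MPTP range, and the unadjusted p was 0.108 and 0.0951 in the pre-treatment and the delayed experiment (edgeR).

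Nts (chr10:102481756-102490486, minus strand) encodes neurotensin, which acts on the receptors NTSR1 and NTSR2 and on sortilin. Control mice of the pre-treatment experiment had 8.61, 12.1 and 12.2 CPM, MPTP mice had 8.19, 8.05 and 8.60 CPM and mice given irisin and MPTP had 8.80, 8.62 and 8.72 CPM. The MPTP mice lay below all control mice, though replicate 3 of the MPTP group, at 8.604 CPM, was next to replicate 1 of the control group, at 8.606 CPM. Nts differed by -0.41 ± 0.14 on the log2 scale for MPTP against control (unadjusted p = 0.0181, adjusted p = 0.818, edgeR) and -0.33 ± 0.14 for irisin and MPTP against control (unadjusted p = 0.042, adjusted p = 0.678, edgeR). Without replicate 1 of the control group these were -0.56 and -0.49.
Mice given irisin and MPTP all lay above the MPTP mice, by 0.07 ± 0.14 on the log2 scale. The margin was small, with replicate 2 of the irisin and MPTP group at 8.618 CPM and replicate 3 of the MPTP group at 8.604 CPM. Control mice of the delayed experiment had 11.5, 10.9 and 9.64 CPM and MPTP mice had 9.05, 9.95 and 7.96 CPM, which overlap, and the log2 fold change was -0.25 ± 0.16 with an interval of -0.61 to 0.11.

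Gal (chr19:3409915-3414544, minus strand), the gene for galanin, was the least abundant member by CPM in the pre-treatment experiment, with 0.936 to 2.60 CPM and 65 to 174 counts in a mouse, and its groups overlapped there. Delayed treatment gave Gal at 10.9, 6.91 and 9.67 CPM in control mice, 6.96, 4.92 and 5.49 CPM with irisin alone, 4.58, 4.85 and 9.25 CPM with MPTP and 6.47, 6.18 and 2.64 CPM with MPTP then irisin. The last group lay below all control mice, and the groups with MPTP alone and irisin alone each had 1 mouse above the lowest control mouse. The log2 fold change of MPTP then irisin against control was -0.85 ± 0.36 (unadjusted p = 0.0377, adjusted p = 0.512, edgeR), and -0.53 without replicate 3 of the MPTP then irisin group.

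Vip (chr10:5639218-5647617, plus strand), also one of the promoters with the motif, encodes vasoactive intestinal peptide, which raises cAMP through the receptors VPAC1 and VPAC2. It had 6.03, 5.99 and 6.31 CPM in control mice of the delayed experiment, 5.61, 6.39 and 5.13 CPM with irisin alone, 6.81, 6.80 and 3.73 CPM with MPTP and 3.93, 4.85 and 3.32 CPM with MPTP then irisin. The last group lay below all control mice and all mice given irisin alone, but replicate 3 of the MPTP group fell within it. The log2 fold change was -0.60 ± 0.22 against control (unadjusted p = 0.0217, adjusted p = 0.464, edgeR) and -0.52 ± 0.22 against MPTP (unadjusted p = 0.0400, edgeR). Vip had 2.995 to 8.34 CPM with pre-treatment, and the interval for irisin and MPTP against MPTP, -0.50 to 1.04, included changes in either direction.

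Cartpt (chr13:99898489-99901091, minus strand), also one of the promoters with the motif, encodes CART prepropeptide and varied most. Control mice of the pre-treatment experiment had 9.93, 4.50 and 104.2 CPM, MPTP mice had 11.6, 105.5 and 29.5 CPM, and mice given irisin and MPTP had 8.49, 102.0 and 71.7 CPM. Each group held a mouse below 12 CPM and a mouse above 100 CPM. The highest mouse was 23.4-fold above the lowest over the 9 mice.
In the delayed experiment Cartpt had 52.9, 38.4 and 48.0 CPM in control mice, 48.1, 53.0 and 10.6 CPM with irisin alone, 37.8, 8.88 and 9.80 CPM with MPTP and 12.6, 47.4 and 9.09 CPM with MPTP then irisin. The mice fell on 2 levels, 5 mice at 8.88 to 12.6 CPM and 7 mice at 37.8 to 53.0 CPM, with a 2.996-fold gap between them. The lower level held 0 control mice, 1 mouse with irisin alone, 2 with MPTP and 2 with MPTP then irisin. All MPTP mice were below all control mice, but replicate 1 of the MPTP group, at 37.8 CPM, was just under the lowest control mouse at 38.4 CPM. For MPTP against control the log2 fold change was -1.30 ± 0.76 with an interval of -2.97 to 0.36 (unadjusted p = 0.113, edgeR). It was -2.31 without replicate 1 of the MPTP group and -0.97 without replicate 2.
The genes most like Cartpt across mice, out of 21152 other genes tested in both experiments and ranked by the smaller Pearson r of the pre-treatment and the delayed experiment, were Ucn, Slc6a4 and Slc17a8. Ucn encodes urocortin, a peptide that shares the Edinger-Westphal nucleus with CART, Slc6a4 the serotonin transporter and Slc17a8 the vesicular glutamate transporter VGLUT3. Tph2, the enzyme of serotonin synthesis, took place 4 and Fev, a serotonergic transcription factor, place 6. Vwa3a took place 5, Nme9 place 7 and Ak7 place 8, and these 3 are in neither the serotonergic nor the Edinger-Westphal marker list. Since the mice of the delayed experiment fell on separate levels, no pooled correlation is given. With pre-treatment the mice were split at the largest gap, which was 2.54-fold. Replicate 3 of the MPTP group, at 29.5 CPM, lay between the neighbouring mice at 11.6 and 71.7 CPM, so separate levels were less clear there. In the 4 lower mice of the pre-treatment experiment (4.50 to 11.6 CPM of Cartpt), Ucn had 0 counts, Slc6a4 had 5.15 to 16.6 CPM and Tph2 had 11.98 to 27.0 CPM. In the 5 upper mice (29.5 to 105.5 CPM), Ucn had 0.346 to 2.62 CPM, Slc6a4 had 23.2 to 94.6 CPM and Tph2 had 45.3 to 171.4 CPM, where the choice of these genes by their likeness to Cartpt already fixes that they follow its levels.
With delayed treatment, which the choice used as well, Ucn had at most 0.297 CPM in the 5 lower mice and at least 0.856 CPM in the 7 upper mice, Slc6a4 had 14.7 to 27.7 against 36.7 to 85.9 CPM, Slc17a8 had 2.51 to 3.82 against 4.94 to 15.5 CPM, and Tph2 had 19.3 to 39.3 against 46.8 to 120.1 CPM. Within the 7 upper mice, Pearson's r with Cartpt was 0.30 for Ucn, 0.15 for Slc6a4, 0.31 for Slc17a8 and 0.18 for Tph2, given as a description. The serotonergic markers Tph2, Slc6a4 and Fev summed to 85.1 to 182.7 CPM in control mice of the delayed experiment, 38.8 to 141.1 CPM with irisin alone, 41.9 to 209.6 CPM with MPTP and 35.9 to 131.8 CPM with MPTP then irisin, and all 3 were detected in every group. Their part in the Cartpt values was not tested.

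**Figure D4:**
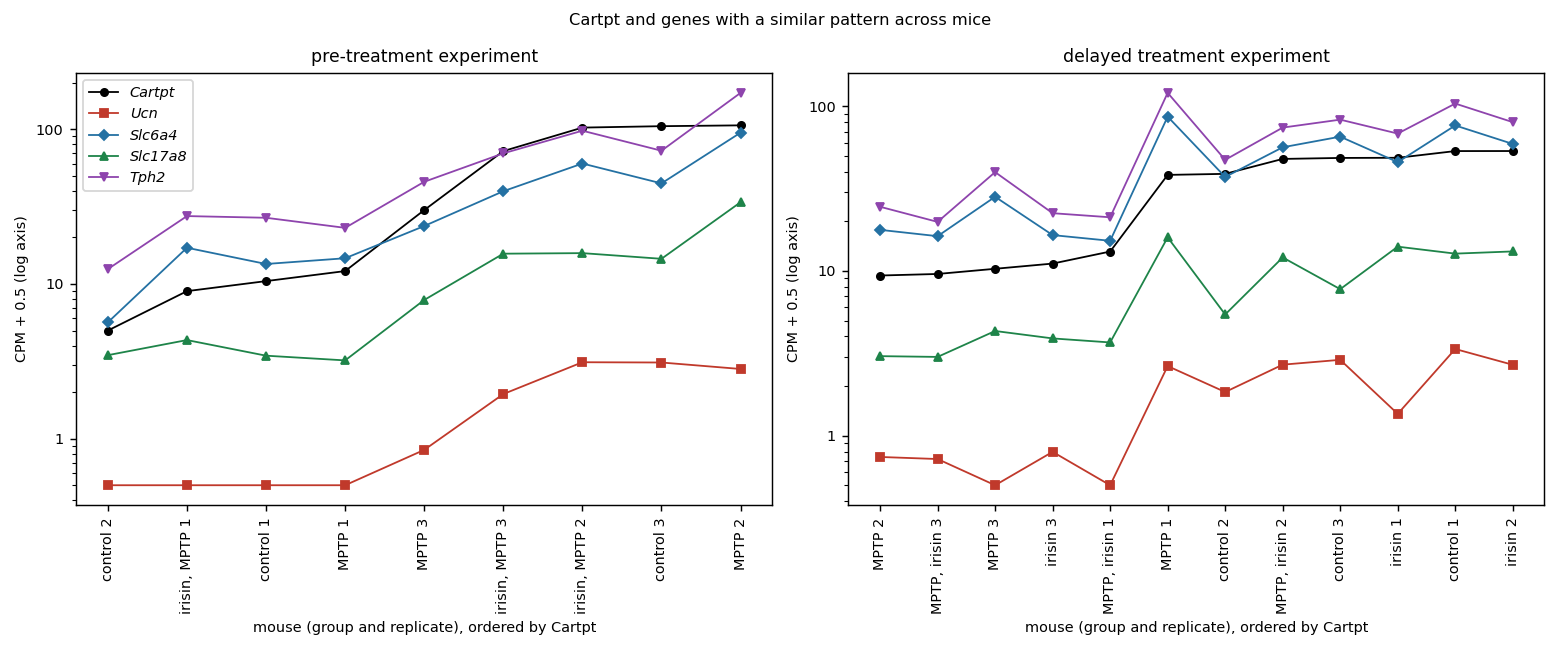
CPM + 0.5 on a log axis for Cartpt, Ucn, Slc6a4, Slc17a8 and Tph2 in each mouse, ordered by Cartpt, with the pre-treatment experiment on the left and the delayed treatment experiment on the right. The 4 other genes were chosen for their likeness to Cartpt or as serotonergic markers. Mice are split at the largest gap in Cartpt. All 5 genes step up between the 4 lower and 5 upper mice on the left and between the 5 lower and 7 upper mice on the right.

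Correlations between members across mice were computed for 45 pairs in each experiment on log2(CPM + 0.5), with an exact permutation test over 9 mice and 100000 permutations over 12 mice, two-sided. None of the 90 correlations passed Benjamini-Hochberg adjustment by Pearson's r or by Spearman's rho, although 9 and 4 pairs had an unadjusted p under 0.05 by Pearson's r with pre-treatment and delayed treatment, and 2 and 3 by Spearman's rho. With pre-treatment the closest pair was Tac1 and Npy, with r = 0.95 and rho = 0.78 (exact permutation p = 0.00138 and 0.0172, adjusted p = 0.113 and 0.461). It rested on replicate 2 of the control group and replicate 2 of the MPTP group, since r was 0.56 without them.
These 2 mice were lowest of the 9 in Npy (2.803 and 2.35 CPM), Tac1 (26.0 and 22.1 CPM) and Sst (49.0 and 55.1 CPM), and the MPTP mouse was lowest in Cck (6.99 CPM). They were also lowest in Gad1, the GABA synthesis gene, with 340.5 and 299.5 CPM against 400.0 CPM or more in the other mice. Their summed GABA neuron markers (Gad1, Gad2 and Slc32a1) were the lowest of the control and the MPTP group, at 781.95 and 775.1 CPM, and the part of these markers in the Npy, Tac1 and Sst values was not tested. Taken as deviations from group means, Tac1 and Npy (r = 0.95, adjusted p = 0.00174), Cck and Tac1 (r = 0.97, adjusted p = 0.00595) and Cck and Npy (r = 0.92, adjusted p = 0.00703, permutation over 9 mice) passed the threshold with pre-treatment, and r was 0.86, 0.95 and 0.79 without the 2 mice farthest from the median. The deviations of a group sum to 0, so permuting them over all mice is not exact. These adjusted p-values are therefore only a description. As measured in the delayed experiment, Tac1 and Npy had r = 0.20, Cck and Tac1 r = -0.12 and Cck and Npy r = 0.14. The closest pair there was Penk and Sst, with r = 0.77 and rho = 0.67 (permutation p = 0.00377 and 0.0205, adjusted p = 0.113 and 0.461), which came to r = 0.56 without the 2 mice farthest from the median of Penk. Pdyn and Nts had r = 0.64 (permutation p = 0.0235, adjusted p = 0.212) in the delayed experiment and r = -0.72 in the pre-treatment experiment (exact permutation p = 0.0235, adjusted p = 0.212), which are opposite signs. Their rho was 0.69 (permutation p = 0.0166) and -0.48 (exact permutation p = 0.194), with adjusted p = 0.461 and 0.798, and without the 2 mice farthest from the median of Pdyn r was 0.43 and -0.67.

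**Figure D5:**
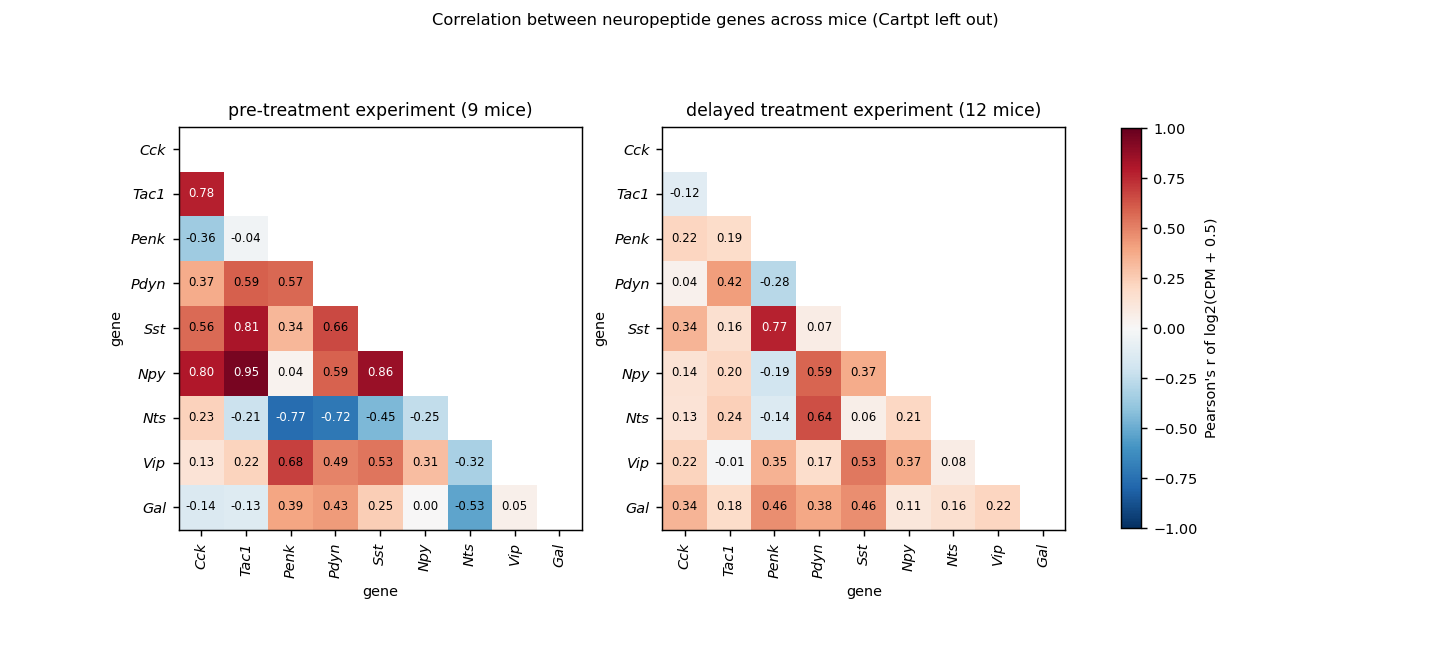
Pearson's r of log2(CPM + 0.5) between 9 neuropeptide genes over the 9 mice of the pre-treatment experiment (left) and the 12 mice of the delayed experiment (right). Cartpt is left out because its mice fall on separate levels in the delayed experiment and spread from 4.50 to 105.5 CPM in the pre-treatment experiment. On the left, values among Cck, Tac1, Sst and Npy run from 0.56 for Cck and Sst to 0.95 for Tac1 and Npy, and no pair passed adjustment. Tac1 and Npy have 0.56 on the left without the 2 mice farthest from the median, and 0.20 on the right.

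For the other members, the 3 most similar genes by the same ranking are named as a description with no test. They were Nxph4, Ltbp3 and Tmem132a for Penk, with r = 0.83 over 9 mice and 0.84 over 12 mice for Nxph4, a neurexophilin. For Pdyn they were Wdr6, Pnmal1 and Baiap3 (0.86 and 0.88 for Wdr6), for Sst Ubl7, Zdhhc8 and Atp13a2 (0.83 and 0.85 for Ubl7), and for Npy Camk2n1, Lhx2 and Grp (0.91 and 0.83 for Camk2n1). Grp encodes gastrin-releasing peptide, itself a neuropeptide, with r = 0.90 and 0.80 to Npy, which fell to 0.35 with pre-treatment once the 2 farthest mice were left out. Tac1 was closest to Sema6b, Mad2l1 and AU040320, Cck to Mrpl10, Slc25a14 and Ccer2, Nts to Gm38218, E530011L22Rik and Gm15725, Vip to Dynlrb2, Dchs1 and Lrrc43, and Gal to Zfp385b, Samd11 and Rusc1, with the first of each between 0.72 for Nts and 0.80 for Tac1 and Vip by the smaller r. The likeness of Gm38218 to Nts rested on few mice, since r with pre-treatment was -0.28 without the 2 farthest, whereas Nxph4 kept r = 0.84 and 0.87 to Penk.

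The other genes of the pathway were described from lists of 25 receptors, 8 processing enzymes, 9 granins and vesicle proteins, 10 peptidases and 30 further neuropeptide genes. No gene of these lists passed an adjusted p of 0.05 in any comparison by edgeR. Among receptors of the members, the 3 with the highest FPKM were Sort1 (sortilin), Ntsr2 and Tacr3, and Sort1 had 252.0 to 304.7 CPM with pre-treatment and 303.8 to 369.6 CPM with delayed treatment. Sort1 was higher in all MPTP mice than in all control mice of the delayed experiment, by 0.18 on the log2 scale (unadjusted p = 0.00461, adjusted p = 0.371, edgeR). Of 24 receptors tested there, 1 was higher and 2 were lower with an unadjusted p under 0.05 (edgeR), beside 8.33% of all genes. Without overlap 2 were higher and 3 lower, beside 16.2%. Ntsr2 was higher in all mice given irisin and MPTP than in MPTP mice of the pre-treatment experiment, by 0.21 (unadjusted p = 0.0246, adjusted p = 0.725, edgeR). Of 23 receptors tested there, 1 was higher and 1 lower with an unadjusted p under 0.05 (edgeR), beside 6.22% of all genes. Without overlap 1 was higher and 1 lower, beside 14.2%.
Of the processing genes, Cpe (carboxypeptidase E), Scg5 (the 7B2 protein) and Pcsk1n (proSAAS) had the highest levels. Scg5 was lower in all MPTP mice than in all control mice of the delayed experiment, by -0.23 on the log2 scale, and Pcsk1n by -0.49 (unadjusted p = 0.000974 and 0.0138, adjusted p = 0.222 and 0.454, edgeR). In that comparison 4 of the 8 processing genes had an unadjusted p under 0.05, 1 higher and 3 lower, where 8.33% of all tested genes did. Without overlap 1 was higher and 3 were lower, beside 16.2% of all tested genes. The median of the 8 log2 fold changes was -0.16.
The granins Scg2, Chgb and Chga were the most abundant vesicle genes. All 3 were lower in MPTP mice than in control mice of the delayed experiment without overlap, by -0.23, -0.11 and -0.14, which made up the 3 of 9 genes of this list with an unadjusted p under 0.05 (adjusted p = 0.419 for Scg2 and Chga and 0.559 for Chgb, edgeR), beside 8.33% of all tested genes with such a p and 16.2% without overlap. The same list had 2 genes with an unadjusted p under 0.05 for irisin alone against control and 4 for MPTP then irisin against control, all of them lower, beside 8.97% and 9.31% of all genes. None of the 9 had one in the 3 comparisons of the pre-treatment experiment. The share of all genes there was 6.03% for MPTP against control. It was 6.22% for irisin and MPTP against MPTP and 7.12% for irisin and MPTP against control.
Peptidases were led by Ece2, Ece1 and Ace.
The further neuropeptide genes were led by Pmch, Adcyap1 and Rln3. Pmch ranged from 0 to 89.8 CPM over the mice of the delayed experiment and Rln3, the relaxin-3 gene of the pontine nucleus incertus, from 0.620 to 15.99 CPM over those of the pre-treatment experiment, while Adcyap1, the PACAP gene, stayed between 31.2 and 41.8 CPM and between 36.3 and 53.7 CPM in the pre-treatment and the delayed experiment. Of these 30 genes 25 could be tested with pre-treatment and 28 with delayed treatment.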

How the data were processed

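The authors sequenced midbrain RNA of 21 mice on an Illumina NovaSeq instrument, used featureCounts to count reads per gene, and deposited 2 tables, 1 for each experiment, which give every gene's raw count and FPKM in each mouse. The submitters' processing notes name HISAT, StringTie, edgeR and the build mm9, whereas positions in both tables follow GRCm38, the build used here. The annotation release and the use of strand are not given in the sources used here. FPKM values were used to order genes by level, and they also carry the effect of the length model.

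Mice were grouped by their labels, which name them as separate animals only by replicate number. All 21 pairs of mice within a group differed by more than counting noise (chi-square per gene of 39.8 or above), so each mouse counted as a replicate. Total counts per mouse were 48843585 to 77203445.

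Deposited counts went into edgeR 4.0.16 under R 4.3.3. Genes were kept by filterByExpr (minimum count 10, minimum total 15), scaled by TMM and tested two-sided by quasi-likelihood, all groups of an experiment sharing a fit, with p-values adjusted by Benjamini-Hochberg across every tested gene (0.05). The standard error is the log2 fold change divided by the square root of the F statistic. The alternatives were median ratio scaling, no filter, only the compared groups, a block for the replicate number, unfiltered DESeq2 1.42.0, leaving out each mouse in turn, CPM in place of FPKM for the order of genes, and deviations from group means for correlations. On simulated counts with 100 genes changed 2-fold and 100 changed 4-fold between MPTP and control, edgeR recovered 52% and 91% of them in a simulation of the pre-treatment table (22641 genes), and 63% and 92% in one of the delayed table (21922 genes). DESeq2 recovered 75% and 95% in the former and 74% and 96% in the latter. In the same order, edgeR called 5 and 6 unchanged genes and DESeq2 called 50 and 42. The changed genes were drawn only from genes above a minimum mean CPM, and changes below 2-fold were not simulated. Correlations and promoter searches were run in Python 3.11.15 (pandas 2.3.3, scipy 1.17.1, numpy 2.4.6), and promoters came from RefSeq (GRCm38.p6). A protein table and the promoter of Penk were not analysed here.

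All 10 members were named, with the 3 genes of each list that had the highest mean FPKM over both tables, any list gene with an adjusted p under 0.05, the defining markers and the 3 genes most like each member. A830012C17Rik was named for its overlap with Penk, and Tph2, Vwa3a, Fev, Nme9 and Ak7, which follow the 3 genes most like Cartpt, were named after their values were seen. The members and the gene lists were chosen with earlier results of these data known.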

Additional observations from a re-analysis of the deposited data

Results flagged for a closer look

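Penk was singled out because its mice moved in opposite directions in the pre-treatment and the delayed experiment under the comparison of irisin and MPTP with control. All 3 mice given irisin and then MPTP were above all 3 control mice, with a log2 fold change of 0.31, and all 3 mice given MPTP and then irisin were below all 3 control mice of their own experiment, with a log2 fold change of -0.27. The adjusted p was 0.537 and 0.447 (edgeR). The order of the injections differs between the groups, the tables were made separately and the libraries differ in depth and in Ttr, and the difference itself was not tested. Groups of 3 mice are too small for a test of single outlying mice, so no mouse was flagged on that ground.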

How the results depend on the processing

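The number of neuropeptide genes past the threshold was 0 in all 8 comparisons and stayed 0 under median ratio scaling, without a filter, with only the compared groups in the fit (not run for the interaction), with DESeq2, and when each mouse was left out in turn (lowest 0 and highest 0). Same-numbered mice were different animals whose deviations from the group means correlated at -0.10 to 0.16 with pre-treatment and -0.08 to 0.04 with delayed treatment, so the replicate number gave no pairing, and with the replicate number as a block 0 members passed. Of 80 fold changes of members, 45 kept their sign under every alternative and 35 did not, the largest of the latter being 0.61 (Cartpt, interaction), and the smallest adjusted p over 930 alternative values was 0.32.

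Counts over all tested genes moved more. In the order of MPTP against control, irisin and MPTP against MPTP and irisin and MPTP against control with pre-treatment, and MPTP against control, irisin against control, MPTP then irisin against MPTP, MPTP then irisin against control and the interaction with delayed treatment, edgeR called 5, 16, 16, 29, 24, 1, 24 and 9 genes, DESeq2 called 82, 158, 167, 151, 116, 25, 116 and 58, and the block left 2, 8, 2, 17, 14, 1, 13 and 7. With only the compared groups, 10, 21, 12, 10, 14, 9 and 10 genes were called in the first 7, and without a filter 9 in the third and 2 in the sixth. Leaving out a mouse gave between 1 and 35. The cause was not tested.

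Correlations between members passed adjustment in 0 of 45 pairs in each experiment as measured, and in 3 and 1 pairs with pre-treatment and delayed treatment on deviations from group means, the last being Pdyn and Nts (r = 0.79). Deviations in a group of 3 sum to 0, so permuting them over all mice is not exact. With CPM in place of FPKM, 51 of 70 places in the order of genes changed, and Penk stood above Sst. With 3 mice a group, changes of Cartpt within its wide intervals could not be detected.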
